A study of Bos taurus with 12 samples.

Results

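The region described here is the 1 Mb window of bovine chromosome 9 from 69000001 to 70000000 (build ARS-UCD1.2). It holds AKAP7, ARG1, MED23, ENPP3, ENPP1 and CCN2 and a part of EPB41L2. Its members are all rows of the deposited tables that start in the window, namely 419 of 196275 single CpG cytosines (sites) and 4 of 1227 windows of 500 bases (tiles). The members were selected on measured values: all rows had been listed by the authors for their difference between the 2 groups, and the window was chosen by position with its many listed sites known. Differences between the groups are therefore descriptions, and no test in this report supports them. Blood was taken from 12 dairy cows kept under the same conditions on 1 farm. The 6 cows named MSG were culled within 1 year of sampling for complications of mastitis that were unknown when the blood was drawn, and the 6 cows named MRG were still in the herd and of similar age. The labels name no allele, agent, breed or parity for either group. Numbers after a group name (MSG 1, MRG 3) only name cows. Only DNA methylation was measured, so the label of blood could not be set against expression markers. Read depth per cow was not used, so values at single sites carry a counting error that is unknown.

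Methylation of the cytosine in CpG is the usual state of most mammalian CpGs, while active promoters and enhancers tend to be unmethylated. ARG1 encodes arginase, which splits arginine into ornithine and urea. It closes the urea cycle in liver and is used by myeloid cells to lower the arginine available to T cells. ENPP1 and ENPP3 are membrane enzymes that cleave nucleotides outside the cell. ENPP1 turns ATP into AMP and pyrophosphate, an inhibitor of mineral deposition, and ENPP3 is a surface marker of activated basophils. CCN2 is a secreted matrix protein induced by transforming growth factor beta. AKAP7 anchors protein kinase A, MED23 is a subunit of the Mediator complex of transcription, and EPB41L2 is a protein of the band 4.1 family that ties membrane proteins to the cytoskeleton.

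Most listed sites of the window were less methylated in MSG. Of the 419 sites, 297 (70.9%) were lower and 122 (29.1%) were higher in MSG, beside 47.3% lower and 52.7% higher over all 196275 listed sites. The lower sites averaged 43.8% ± 28.7 in MSG against 79.4% ± 18.8 in MRG (SD, n = 6 each). The higher sites averaged 73.0% ± 12.4 in MSG against 38.7% ± 25.3 in MRG. The groups' cows overlapped in both means. Over the lower sites the MSG cows ran from 0.473% through a median of 37.1% to 77.8%, and the MRG cows from 41.4% through 85.9% to 91.0%. MSG 1 stood lowest, near 0, MSG 4 and MSG 5 stood at 77.8% and 74.3%, below the 83.7% or more of 5 MRG cows, and MRG 3 stood nearer to MSG 2, MSG 3 and MSG 6 than to those cows. Over the higher sites the MSG cows ran from 54.0% through 74.0% to 92.6% and the MRG cows from 4.08% through 36.1% to 67.6%, with MSG 1 highest and MRG 1 lowest.

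**Figure D1:**
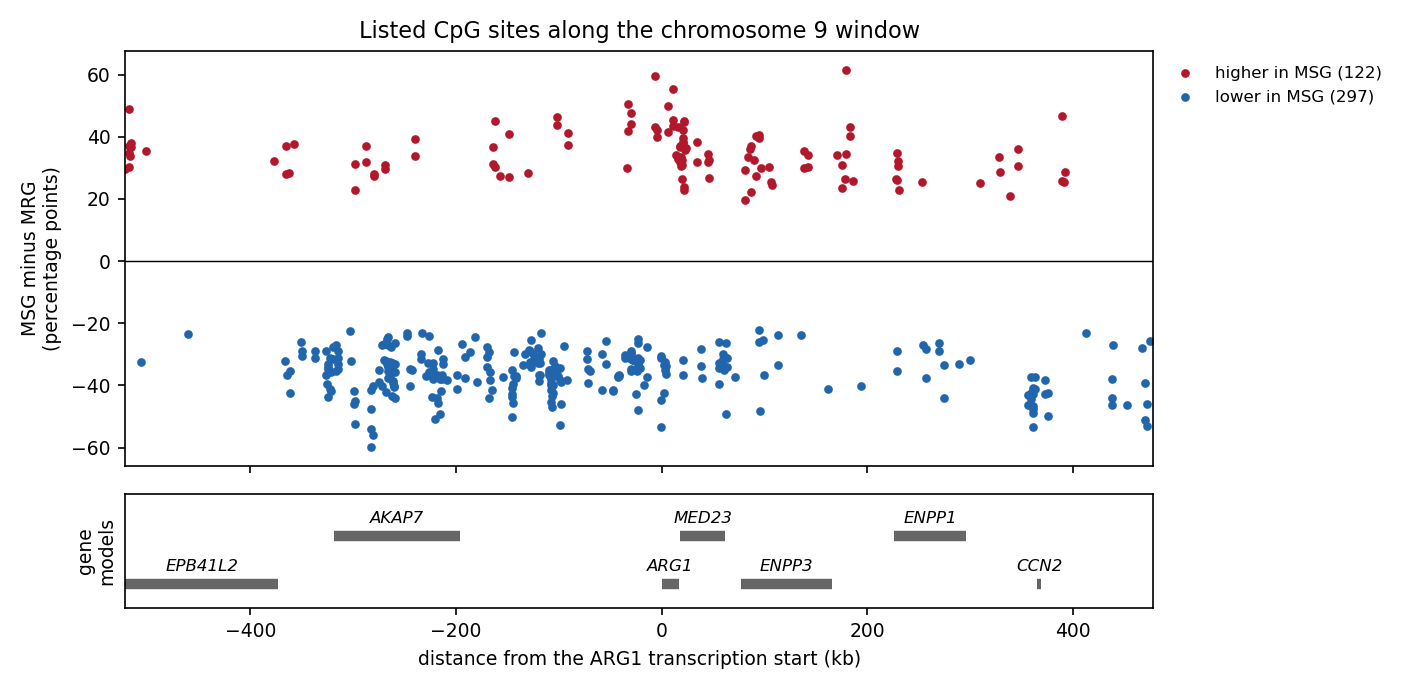
Difference in mean percent methylation, MSG minus MRG in percentage points, at each of the 419 listed sites against the distance from the ARG1 transcription start in kb, with the gene models below. The 297 lower sites crowd over AKAP7 and the stretch between AKAP7 and ARG1, and the 122 higher sites are most frequent from ARG1 to ENPP3. The authors listed only larger differences, so no site lies near 0.

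The window held the most listed sites of all 1 Mb windows of chromosome 9 and ranked 12 from the top among 2642 such windows of the genome, whose median was 49 sites. Windows next to it held 145 and 287 listed sites. How many covered CpGs missed the authors' thresholds was not analysed here. Sites were densest from 69200001 to 69300000 and from 69400001 to 69500000, with 80 sites each, of which 70 and 71 were lower in MSG. From 69500001 to 69600000, where ARG1, MED23 and the start of ENPP3 lie, 36 sites were higher and 34 lower. From 69600001 to 69700000, over ENPP3, 22 of 31 sites were higher.

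Position set the ends of the window. The last listed site before it, at 68999232, stood at 60.4% ± 17.1 in MSG against 23.1% ± 25.7 in MRG (SD, n = 6 each), and the first inside, at 69000042, at 52.3% ± 24.7 (n = 5) and 22.7% ± 25 (n = 6). The last site inside, at 69996634, stood at 14.7% ± 23.1 in MSG against 40.5% ± 35.6 in MRG, and the first beyond, at 70033045, at 65.5% ± 18.4 and 44.3% ± 43.3. In the authors' deposited table the smallest absolute difference among the window's sites was 25.3 points, and 4 sites were under 26 points.

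Distal intergenic sequence held 209 sites (49.9%, beside 58.2% of all listed sites), introns 177 (42.2%, beside 34.9%) and promoters 29 (6.92%, beside 5.44%). The 3' untranslated regions held 4 sites (0.955%, beside 0.383%). No listed site of the window was annotated to an exon, beside only 0.943% of all listed sites. In all, 221 sites lay outside every gene model given in the table. Of the 29 promoter sites, 26 were lower and 3 higher in MSG, and the groups overlapped at all 29, beside 2.36% of all listed sites at which they did not.

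ARG1 had 119 listed sites, 80 lower and 39 higher in MSG, and 3 of the 4 tiles. Its gene model runs from 69522090 to 69539079 on the plus strand. Direction went with place: 71 of the 84 sites before the start were lower, 7 of the 15 sites inside the gene were lower, and 18 of the 20 sites beyond its end were higher. Of those last 20 sites, 17 lay inside the neighbouring gene MED23, although the authors' annotation gave them to ARG1. Over its lower sites the MSG cows ran from 0% through a median of 42.6% to 85.5% and the MRG cows from 47.3% through 88.2% to 92.2%. MSG 1 was at exactly 0 at all 80. Over its higher sites MSG 1 averaged 94.0%, while MRG 1, MRG 2 and MRG 6 averaged 0%. The group means there were 63.1% ± 24.3 in MSG against 23.6% ± 29.7 in MRG (SD, n = 6 each), a difference of 39.5 points, with MSG 4 at 23.4% and MRG 5 at 69.02%.

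The annotation class promoter held 8 ARG1 sites, all lower in MSG, of which 4 lay before the start and 4 lay 2.50 to 2.94 kb inside the gene. They averaged 30.9% ± 24.4 in MSG against 69.2% ± 21.8 in MRG (SD, n = 6 each). The MSG cows ran from 0% through 42.2% to 52.7%, with MSG 1 and MSG 3 at 0, and the MRG cows from 46.0% through 70.9% to 90.6%. MRG 1, MRG 2 and MRG 6 stood at 88.02% or more, MRG 5 stood at 53.7%, just above MSG 6, and MRG 3 and MRG 4 lay within the range of MSG. The 4 sites nearest to the start were both cytosines of 2 CpGs at 69521670 and 69521709, the nearest of them 380 bases before it. The tile that contains them (69521501 to 69522000, ending 90 bases before the start) stood at 49.4% ± 17.9 in MSG against 77.5% ± 13.6 in MRG. Its MSG cows ran from 22.2% through 56.1% to 70% and its MRG cows from 60.3% through 78.6% to 90.7%. MSG 1 stood at 33.3% in the tile and at 0 at its 4 listed sites. The authors' deposited table gave this tile a difference of -31.9 points.

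The other tiles given to ARG1 lay outside it. An intergenic tile 30.1 kb before the start (69491501 to 69492000) stood at 65.5% ± 29.5 in MSG against 89.9% ± 15.1 in MRG (SD, n = 6 each). Its MSG cows ran from 18.5% through 61.4% to 98.4% and its MRG cows from 59.2% through 95.4% to 98.6%. MRG 3 stood at the level of MSG 2, MSG 3 and MSG 6 in it. A tile over exon 28 of 29 of MED23 (69542501 to 69543000) was the only tile of the window higher in MSG, at 65.6% ± 22.8 against 42.4% ± 15.3. Its MSG cows ran from 27.3% through 67.0% to 97.5% and its MRG cows from 29.3% through 34.7% to 67.1%, and MSG 4 lay below every MRG cow. Each of the 4 tiles held 4 listed sites, all of the tile's direction. Sites and tiles share their reads.

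**Figure D2:**
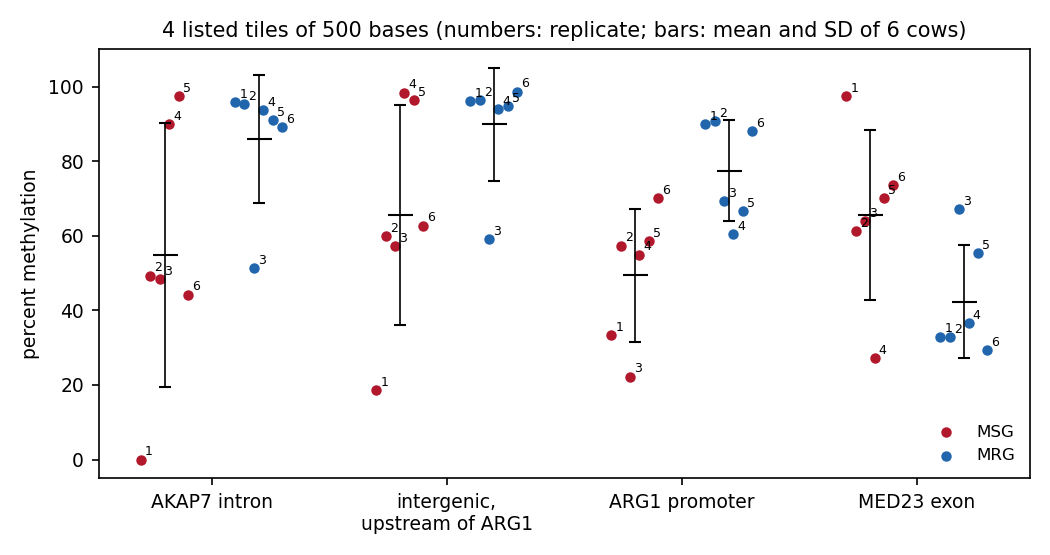
Percent methylation of each cow in the 4 listed tiles of 500 bases, with MSG in red, MRG in blue, replicate numbers beside the points and bars for the mean and SD of 6 cows. The groups overlap in all 4 tiles: MRG 3 lies among MSG cows in the AKAP7 intron and the intergenic tile, and MSG 4 lies lowest in the MED23 exon.

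The site of ARG1 with the widest difference among those with a value for all 12 cows lay in intron 4 of 7, at 69533361 on the plus strand. It stood at 85.8% ± 22.1 in MSG against 30.5% ± 38.2 in MRG (SD, n = 6 each). The MSG cows ran from 54.5% through 100% to 100% and the MRG cows from 0% through 15.8% to 90%. MRG 3 at 61.5% and MRG 5 at 90% lay above the lowest MSG cow, and MRG 1, MRG 2 and MRG 6 were at 0.

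AKAP7 had the most listed sites of the window, 160, of which 142 (88.8%) were lower in MSG. Of them, 92 lay inside its gene models, 15 before the gene and 53 beyond it. The lower sites averaged 44.1% ± 28.02 in MSG against 79.3% ± 19.8 in MRG (SD, n = 6 each). Their MSG cows ran from 0.347% through 41.1% to 75.6% and their MRG cows from 39.6% through 87.1% to 91.9%. MSG 1 was at exactly 0 at 136 of the 142 sites, and MRG 3, at 39.6%, was the only MRG cow within the range of MSG. All 8 promoter sites were lower, at 53.5% ± 34.9 against 85.9% ± 15.3. The annotation has an AKAP7 entry starting at 69203273 and another starting at 69291557, and these sites are divided between the starts. The promoter sites at 69288952 and 69293279 were given to the later start and lay inside the longer model.

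The AKAP7 tile, in intron 6 of 7 (69255751 to 69256250), stood at 54.9% ± 35.3 in MSG against 86.0% ± 17.1 in MRG (SD, n = 6 each). The MSG cows ran from 0% through 48.8% to 97.5% and the MRG cows from 51.4% through 92.3% to 95.8%. MSG 1 was at 0, MSG 2, MSG 3, MSG 6 and MRG 3 stood between 44.2% and 51.4%, and the other 7 cows stood at 89.0% or more. The listed site of AKAP7 with the widest difference (69239007, plus strand, intron 5 of 7) stood at 16.6% ± 18.5 in MSG against 76.4% ± 38 in MRG. Its MSG cows ran from 0% through 13.6% to 38.9% and its MRG cows from 0% through 92.1% to 100%. MRG 3 was at 0 there, and the other MRG cows stood above every MSG cow. The 18 higher sites of AKAP7 averaged 93.8% ± 1.71 in MSG against 62.3% ± 38.0 in MRG, where MRG 1 averaged 0.292% and MRG 5 94.9%. Without MRG 1 that difference of 31.6 points was 19.2 points.

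MED23 had 21 sites of its own in the annotation, 15 lower and 6 higher in MSG. The lower sites averaged 51.8% ± 32.4 in MSG against 85.5% ± 15.2 in MRG (SD, n = 6 each), with MSG 1 at 0 at all 15, and 8 of them were promoter sites. The 6 higher sites averaged 96.7% ± 1.49 in MSG against 65.2% ± 39.4 in MRG, where MRG 1 was at 0. Without MRG 1 their difference of 31.6 points was 18.5 points. The widest difference of the gene lay in its promoter, 739 bases before the start (69584460, minus strand), at 22.2% ± 24.8 against 71.5% ± 22.4. There MSG ran from 0% through 17.9% to 50% and MRG from 46.7% through 72.0% to 100%, and MSG 4 and MSG 6 lay within the range of MRG. Counting by position, 34 listed sites lay inside the MED23 model, and 21 of these were higher in MSG.

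The nucleotide pyrophosphatase genes had mixed sites. ENPP3 had 28 sites, of which 19 were higher in MSG, and 27 of the 28 lay inside its gene models. The higher sites averaged 56.6% ± 18.9 in MSG against 25.2% ± 20.9 in MRG (SD, n = 6 each). Their MSG cows ran from 27.6% through 55.8% to 87.4% and their MRG cows from 0.627% through 19.3% to 54.1%. MSG 4 lay among the MRG cows. Its widest difference among sites with all 12 cows (69616507, minus strand, intron 1 of 22) stood at 47.3% ± 29.1 against 6.67% ± 16.3, with all MRG cows at 0 except MRG 3, at 40%, and with MSG 4 at 0. ENPP1 had 16 higher and 12 lower sites. The higher sites averaged 79.4% ± 7.30 in MSG against 47.7% ± 28.3 in MRG, with MRG cows from 0% through 54.6% to 72.7%, and the lower sites 47.3% ± 31.8 and 81.0% ± 16.03. Of its 5 promoter sites, 1.85 kb or more inside the gene, 3 were higher and 2, the strands of 1 CpG, were lower. The lower site of ENPP1 with the widest difference (69796265, minus strand, intron 10 of 24) ran from 0% through 31.1% to 100% in MSG and from 52.9% through 90.4% to 100% in MRG.

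CCN2 had 40 listed sites, 30 lower and 10 higher in MSG, and none lay in the gene or its promoter. The gene model runs from 69887189 to 69890613 on the minus strand, the nearest listed site was 4.53 kb from its start, and the sites reached 106 kb before it, so their values describe sequence around CCN2. The lower sites averaged 27.3% ± 24.2 in MSG against 69.1% ± 24.5 in MRG (SD, n = 6 each). Their MSG cows ran from 0% through 29.9% to 62.5% and their MRG cows from 20.2% through 77.9% to 87.2%. MSG 1 was at 0 at all 30, MSG 3 averaged 1.5%, and MRG 3 was again the only MRG cow within the range of MSG. The site with the widest difference (69883361, minus strand, 7.25 kb downstream of the start and past the gene's end) was at 0 in MSG 1, MSG 3, MSG 6 and MRG 3 and at 100% in the other 5 MRG cows. EPB41L2 had 23 sites in the window, 14 of them higher in MSG at 71.6% ± 11.5 against 37.4% ± 26.7, and 9 lower at 50.4% ± 28.7 against 82.4% ± 15.5. The window cuts this gene, whose models reach back to 68956838 and which had 31 listed sites in all. Of its 12 window sites inside the gene 10 were higher, and of the 11 before it 7 were lower. The widest difference among sites with all 12 cows (69160305, plus strand, 10993 bases before the start) ran from 0% through 42% to 88.9% in MSG and from 44.4% through 95% to 100% in MRG.

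**Figure D3:**
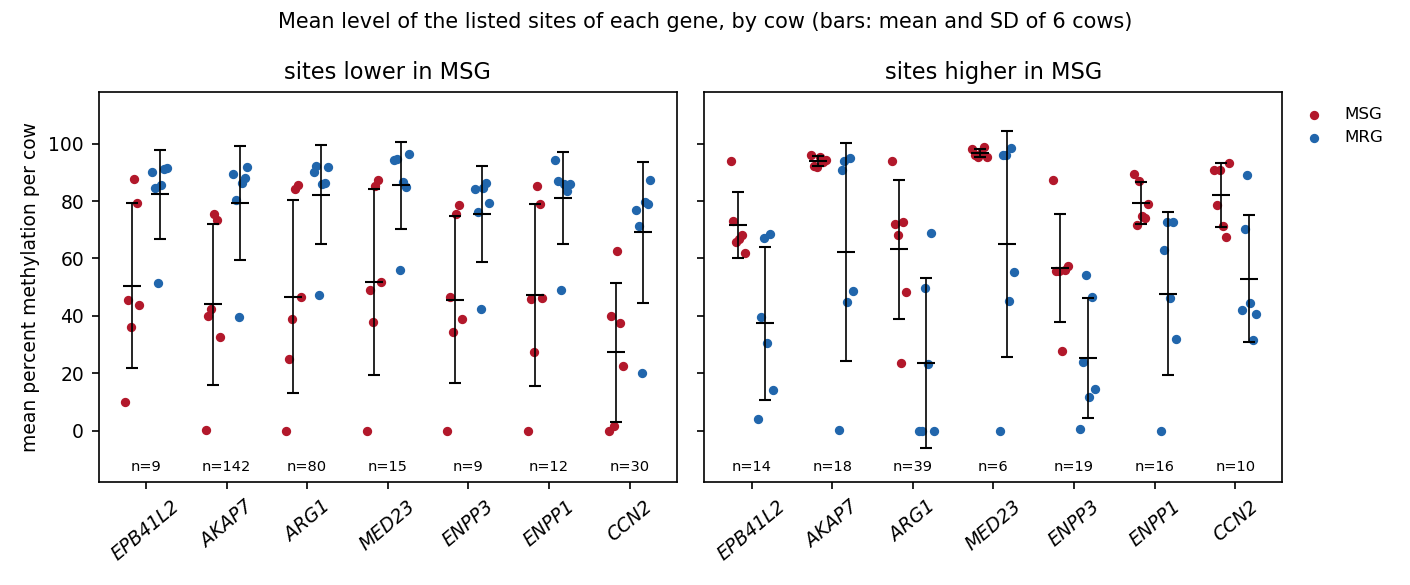
Mean percent methylation per cow over the lower and over the higher listed sites of each gene, with MSG in red, MRG in blue, bars for the mean and SD of 6 cows, and the number of sites below. MSG 1 lies at or near 0 over the lower sites of AKAP7, ARG1, MED23, ENPP3, ENPP1 and CCN2 and averages 10.1% for EPB41L2, while MRG 1 lies at 4.08% or less over the higher sites of every gene but CCN2 (42.0%).

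The same cows stood low at sites far apart. MSG 1 was at exactly 0 at 290 of the 297 lower sites, and MRG 1 at 112 of the 122 higher sites. Counted over sites with a value, these were 98.6% and 92.6%, beside 40.9% and 37.1% for the same cows over all listed sites of that direction. In this window MSG 1 was at 0 at none of the higher sites. The lower sites with MSG 1 at 0 spread over all 7 genes. In the 1 Mb windows before and after it, MSG 1 was at 0 at 75 of 85 and 126 of 137 lower sites. MRG 1 was at 0 at 22 of 60 higher sites (36.7%) in the window before and at 142 of 150 (94.7%) in the window after. A cow at 0 at nearly all lower sites was not rare in the table. Of 613 windows with at least 50 lower sites, 46 had an MSG cow at 0 at 97.6% of them or more. The median window had 78.1% for its most frequent cow. Among 721 windows with at least 50 higher sites, 168 had an MRG cow at 0 at 91.8% of them or more. There the median window had 73.0%.

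**Figure D4:**
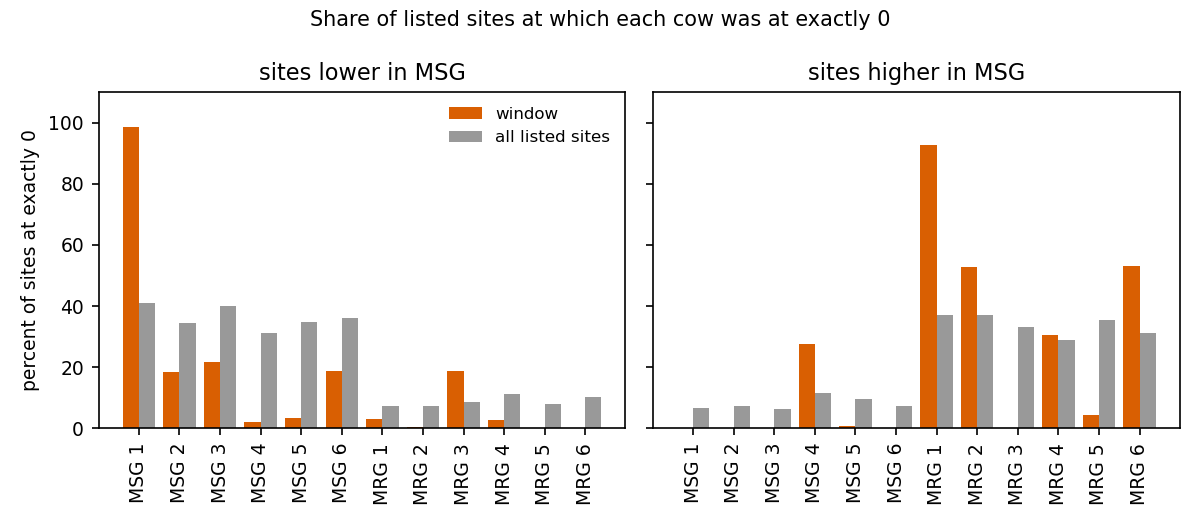
Percent of listed sites at which each cow was at exactly 0, for sites lower and higher in MSG, in the window (orange) and over all listed sites (grey). In the window MSG 1 reaches 98.6% of the lower sites and MRG 1 reaches 92.6% of the higher sites, while over all listed sites no cow exceeds 40.9%. Some other windows also had a single cow at 0 at most sites of a direction.

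At 160 sites (38.2% of the window, beside 2.56% of all listed sites) MSG 1 was the only cow at 0. Over these sites the medians of the other cows lay at 2 levels. MSG 2, MSG 3, MSG 6 and MRG 3 had medians of 46.2%, 45.0%, 46.9% and 52.9%, and the other 7 cows had medians of 92.9% to 100%. The middle 50% of sites ran from 33.3% to 58.3% in MSG 2 and from 88.9% to 100% in MSG 5. These 160 sites lay between 69015617 and 69822277, over 807 kb, with 89 given to AKAP7 and 35 to ARG1. At 44 further sites MRG 1 was the only cow at 0, all of them higher in MSG. There MRG 4 and MRG 6 had medians of 40.8% and 47.1%, and the remaining 9 cows had medians of 92.3% to 100%.

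Some other sets of cows at 0 were also spread widely. The 31 sites with MRG 1, MRG 2 and MRG 6 alone at 0 spanned 705 kb in EPB41L2, ARG1, ENPP3 and ENPP1, with 19 given to ARG1, and the 34 sites with MSG 1 and MSG 3 alone at 0 spanned 618 kb and 5 genes. Other sets lay in shorter stretches. All 32 sites with MSG 1 and MSG 2 alone at 0 lay within 68.3 kb before ARG1, from 69412272 to 69480568. All 22 sites with MSG 1, MSG 6 and MRG 3 alone at 0 were given to AKAP7, and all 16 with MSG 1, MSG 3, MSG 6 and MRG 3 alone at 0 were given to CCN2. The 25 sites with MSG 4, MRG 1, MRG 2, MRG 4 and MRG 6 alone at 0 lay from 69535978 to 69628279, 16 given to ARG1 and 9 to ENPP3, and were all higher in MSG. Only 12 sites of the window (2.86%, beside 21.7% of all listed sites) had no cow at 0. Of these, 8 were higher and 4 lower in MSG, so that the majority was the reverse of that over the whole window. Of all single values in the window, 17.4% were 0, 29.9% lay from 30% to 70%, and 39.2% were at 85% or more, beside 21.7%, 32.0% and 32.1% over all listed sites.

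**Figure D5:**
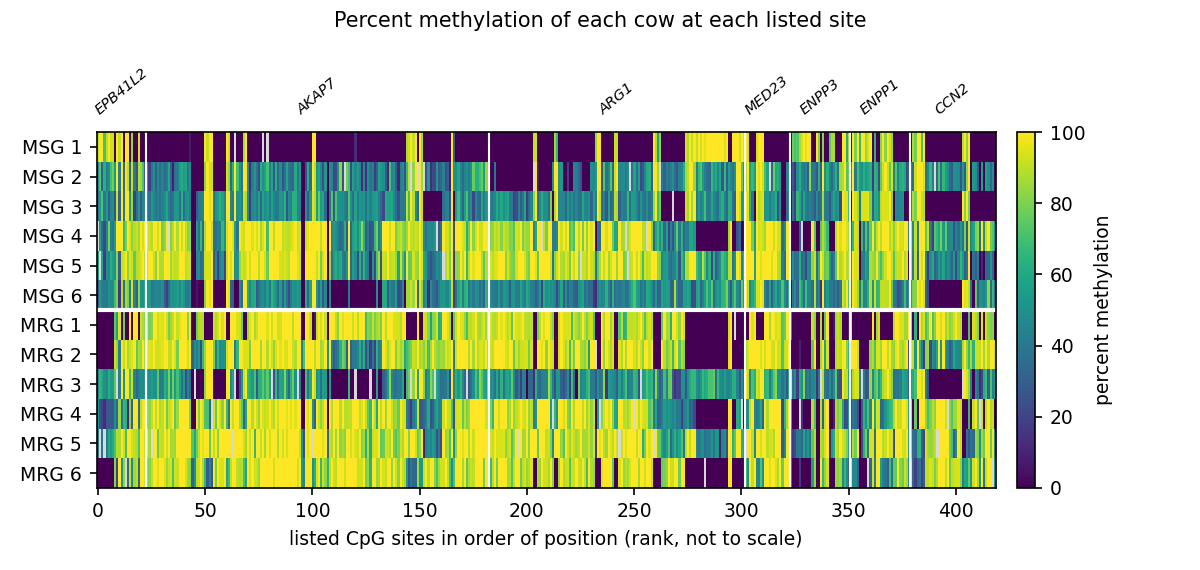
Percent methylation (colour) of the 12 cows in rows at the 419 listed sites in order of position in columns, with white lines between genes and grey or white slivers for missing values. MSG 1 is dark over most sites from AKAP7 to ARG1. At many of these MSG 2, MSG 3, MSG 6 and MRG 3 keep intermediate colours and the other cows are bright. In parts of this stretch MSG 2, MSG 3, MSG 6 or MRG 3 are dark as well, and the dark cows change from ARG1 to ENPP3.

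At the median cow, the strands of a CpG differed slightly more in the window than over all listed sites. Of the window's 271 CpGs, 148 were listed on both strands, and all 148 pointed the same way, as did all 43073 such pairs of the table. Both strands had been listed for the same contrast, so little is read from their like direction. The mean absolute difference between strands ran from 2.35 points in MSG 1 to 14.3 points in MSG 2, with a median over cows of 9.85, beside 8.64 over all listed sites. In MSG 1, 102 of 146 such CpGs were at 0 on both strands. In 1734 pairs of values from 1 cow, none had 0 on a strand and 50% or more on the other. Over all listed sites 287 of 502919 pairs did, so such pairs were rare throughout. Listed sites less than 1 kb apart formed 167 runs. Of the 59 runs with at least 2 CpGs, 38 were lower and 10 higher at every site, and the rest were mixed.

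The 3 runs of at least 10 sites lay in AKAP7, before ARG1 and in MED23. The run of 10 sites in AKAP7 (69254230 to 69256269, around its tile) averaged 54.8% ± 35.7 in MSG against 89.4% ± 13.4 in MRG (SD, n = 6 each). The run of 13 sites 108 kb before ARG1 (69413872 to 69416468) averaged 45.2% ± 40.3 and 85.4% ± 18.3, with MSG 1 and MSG 2 at 0 and MRG 3 at 48.2%. The run of 16 sites in MED23 (69540977 to 69544486, given to ARG1) averaged 55.0% ± 22.8 and 28.9% ± 22.2, 14 of its sites being higher in MSG.

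The groups' cows did not overlap at 2 of the 419 sites, beside 2.36% of all listed sites, and at 0 of the 4 tiles, beside 6.03% of all listed tiles. Both sites were distal and higher in MSG, beside 1.39% of all listed sites apart and higher. None was apart and lower, beside 0.971%, and no tile was apart and higher, beside 3.67%, or lower, beside 2.36%. The site 47.5 kb before ENPP1 (69700760, plus strand) ran from 42.9% through 70.8% to 100% in MSG and from 0% through 0% to 27.3% in MRG, where MRG 3 had no value. The site 40.3 kb downstream of the CCN2 start (69850328, plus strand) ran from 77.8% through 86.2% to 92.9% in MSG and from 18.2% through 57.6% to 76.5% in MRG. Without MRG 3, 28 sites of the window had groups that did not overlap, beside 3.88% of all listed sites. Without any other single cow the count was 2 to 9, beside 3.69% to 4.38%.

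Fitted with limma over each whole table, 2 of the 4 tiles (the AKAP7 intron and the ARG1 promoter) had a Benjamini-Hochberg adjusted p under 0.05, beside 73.3% of all listed tiles. None of the 419 sites did, beside 0% of all listed sites. At an unadjusted p under 0.05 limma marked 267 sites, beside 51.9% of all, and an exact permutation test marked 132, beside 35.5% of all, with 0 after adjustment in either. These counts come from the contrast that listed the rows, and nothing is read from them. Without MSG 1, MSG 3, MRG 1 or MRG 2 none of the 4 tiles passed, beside 38.2%, 32.4%, 36.4% and 37.2% of all listed tiles. All 4 passed without MSG 4 or without MRG 3, beside 62.3% and 51% of all.

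Genes related to the window's genes were counted over the whole table. There 11830 gene symbols had a listed site, but genes without a listed site were not counted. The number of genes of a list with sites therefore has no share to stand beside, and nothing is read from it. Sites were given to genes by the authors' annotation, and some genes had mainly distal intergenic ones. These were 52 of 57 sites at OAT, 49 of 49 at CCN3 and 144 of 162 at GYPC. At NOS1 they were 0 of 39, at NT5E 0 of 57 and at ADD2 4 of 72. Of 23 genes of arginine metabolism and the urea cycle, 10 had listed sites, and outside ARG1 45 sites were higher and 128 lower in MSG, beside 52.7% higher over all sites with a symbol. The aminotransferase gene OAT had 20 higher and 37 lower sites, the nitric oxide synthase gene NOS1 had 5 and 34, and the antizyme inhibitor gene AZIN2 had 1 and 22. Of 23 genes of extracellular nucleotide and pyrophosphate metabolism, 17 had listed sites. Outside ENPP1 and ENPP3, 116 sites (55.2%) were higher and 94 lower, near the 52.7% over all sites with a symbol. NT5E, which turns AMP into adenosine, had 26 higher and 31 lower sites and 1 tile, the alkaline phosphatase gene ALPL had 47 and 3, and ENTPD6 had 0 and 22. Of 27 names of CCN proteins and the Hippo pathway, older symbols included, 15 had listed sites. Outside CCN2, 88 sites (64.7%) were higher and 48 lower. There were 35 and 14 at CCN3, 14 and 11 at CCN4, and 10 and 0 at the Hippo kinase gene STK3. Of 22 genes of the band 4.1 family and the membrane skeleton, 18 had listed sites. Outside EPB41L2, 213 sites (62.1%) were higher and 130 lower. There were 70 and 92 at the glycophorin C gene GYPC, 52 and 20 at the adducin gene ADD2, and 43 and 2 at the spectrin gene SPTBN1. The sites of each list are pooled over its genes, and the few genes named gave many of them. Neighbouring sites of a gene are not independent, so these shares are not read as a tendency of a pathway.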

How the data were processed

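Enzymatic methylation sequencing of blood DNA was analysed from the authors' deposited percent methylation per cow, 1 column per cow in each of 2 tables, per the file headers. Modified cytosines were protected by the enzymes TET2 and T4-BGT and the rest were deaminated by APOBEC3A and read as thymine, per the labels' protocols. Such a read looks the same as one from a cow that carries thymine there; the part of such variants in values of 0 was not tested. The submitters' processing notes name fastp 0.23.1, Bismark, DRAGEN and ChIPseeker 1.32.1 and the build ARS-UCD1.2. The test behind the authors' deposited p-values and q-values is not given in the sources used here, nor is the annotation release. The deposited difference in percentage points, the gene, annotation class and distance were also taken, per the file headers. The tile table has 36 further columns of coverage and read counts that name no cow and were not used, so depth is unknown for both tables.

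Group means weight cows equally, and they differ from the authors' deposited differences. Sites and tiles were fitted with limma 3.58.1 (R 4.3.3) on percent values over each whole table, two-sided, with Benjamini-Hochberg adjustment, in place of the logistic test planned for counts. The fit was also run on simulated normal values. Those were neither bounded like percents nor listed for a difference, so nothing is read from that run. The exact permutation test used all 924 regroupings for rows with 12 values. Cows are the replicates. The members and lists were chosen with earlier results of these data known. Described genes were those with at least 10 rows, and all 7 genes qualified. The named site of a gene has its widest difference among sites with all 12 cows; all tiles and the runs of at least 10 sites were named, and from the lists up to 3 genes outside the window with the most sites. Alternatives changed the test, threshold, scale, strands, gaps, rows with 0 and the cows included. No sequence is shown, since no genome of this build was used.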

Additional observations from a re-analysis of the deposited data

Results flagged for a closer look

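In 21 of the 70 groups of 6 cows examined (means of the window, genes and promoters, tiles, named sites and runs), a single cow stood far from the other 5. The rule would mark about 1 in 20 such groups by chance if values were normal and unselected. The values here are bounded percents from rows listed for a group difference, and the groups share cows and neighbouring sites. That rate is therefore not a chance level for these data, and no excess over chance is read from the count. MRG 3 was the cow in 20 of the 21 groups, and its values lay on the side of MSG.

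Over the lower sites MRG 3 averaged 41.4% in the whole window, with the other MRG cows at 83.7% or more. By gene it averaged 51.3% for EPB41L2, 39.6% for AKAP7, 47.3% for ARG1, 56.0% for MED23, 42.4% for ENPP3, 49.1% for ENPP1 and 20.2% for CCN2. Over the lower promoter sites it averaged 54.9% for AKAP7, 53.6% for MED23 and 66.2% for ENPP1. In the tiles it stood at 51.4% in the AKAP7 intron and 59.2% before ARG1, and in the runs at 62.2% in AKAP7 and 48.2% before ARG1. At named sites it stood at 44.4% for EPB41L2, 0% for AKAP7, 52.9% for ENPP1 and 0% for CCN2, below the other MRG cows, and at 40% for ENPP3, where the other MRG cows were at 0. The remaining value was that of MSG 1 over the higher sites of EPB41L2, 93.9%, with the next MSG cow at 73.0%.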

How the results depend on the processing

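No paired analysis was possible because the labels give no replicate numbers that tie a cow of one group to a cow of the other. The share of window sites higher in MSG, 29.1%, was 66.7% among the 12 sites with no cow at 0. It was 26.7% to 31.1% with a difference of at least 40 points, with all 12 cows, with each CpG or each run counted once, and 29.1% whichever cow was left out. The number of listed sites, 419, was 271 with each CpG counted once, 105 at 40 points or more and 12 with no cow at 0. Without a cow, the difference over the lower sites of the window ran from -43.2 to -27.0 points and that over the higher sites from 27.3 to 40.01 points. With medians over sites in place of means the latter was 51.3 points. Both kept their direction under every alternative run, and so did the differences of single genes by direction. The sites had been sorted by the sign of this same difference, so a kept direction was largely fixed in advance. Likewise, every site of the window differed by 19.6 points or more, which left little room for the share without a cow to change. The 2 sites with groups that did not overlap were 1 with all 12 cows, 1 with each CpG counted once and 1 with no cow at 0, and 2 to 28 without a cow, a setting chosen after seeing the data; over the whole table that count was 4635 and 7249 to 8602 without a cow. Of the 4 tiles, limma passed 2; the exact permutation test passed 0, an adjusted p under 0.01 passed 0, the logit scale passed 1, and 0 to 4 passed without a cow. Of the 1227 tiles, limma passed 899, the exact permutation test 213, an adjusted p under 0.01 passed 0, and 397 to 797 passed without a cow; the logit scale passed 621, within 1.5 times of the count reported. No site of the table passed, except 1 without MSG 4 and 74 without MSG 6, none of them in the window, so the range without a cow was 0 to 74. Read depth was not used, so counting error at single sites is unknown. The tiles' share with a difference of at least 40 points was not run, since no tile of the window reached it.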
